A study of Mus musculus with 6 samples.

Results

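Potassium channel genes were described here in whole brain of mice that lack TRMT1L and of wild-type mice. The genes are the protein-coding genes of the GENCODE M21 mouse annotation whose symbol starts with Kcn, apart from 1 gene that is not analysed here. These rules gave 93 genes of the 55450 in the deposited count files. They were placed in 14 groups by symbol, without use of any measured value.

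TRMT1L is a homologue of the tRNA methyltransferase TRMT1, and its gene is Trmt1l. Total RNA longer than 200 bp was taken from whole mouse brain, and TruSeq total RNA libraries were sequenced from 3 knockout (KO) and 3 wild-type (WT) samples, called biological triplicates by the submitters. The labels give the genotype as KO or WT only. The allele and how it was made, the strain, the age and the sex of the mice are not given in the sources used here. No treatment other than the genotype is named, and each group has 3 libraries numbered 1 to 3.

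Potassium channels let potassium ions leave or enter a cell along the electrochemical gradient and so set the resting potential, end action potentials and shape firing. Voltage-gated subunits (Kcna to Kcnd, Kcnh, Kcnq) open on depolarization, Kcnma and Kcnn subunits respond to intracellular calcium and Kcnt subunits to sodium, inward rectifiers (Kcnj) carry current near rest, and two-pore-domain subunits (Kcnk) carry background leak. Auxiliary subunits (Kcnab, Kcne, Kcnip, Kcnmb) form no pore and change the trafficking or gating of the subunits that do.

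The feature that pore-forming genes have in common and auxiliary genes lack is the selectivity filter, the short stretch of the pore that passes potassium over sodium. One coding sequence per gene was searched in frame for 5 consecutive codons: threonine or serine, then valine, isoleucine, leucine or threonine, then glycine, then tyrosine, phenylalanine or leucine, then glycine. The sequences below show that stretch for 8 genes of 8 different groups, to show how it varies between them. The 15 bases in capitals are the 5 codons, with 12 bases on either side, read 5′ to 3′ on the coding strand from GENCODE M21 transcripts. Coordinates are those of the capitals in GRCm38, and none is given where an exon junction interrupts them.
Kcna2, chr3:107105224-107105238, plus strand: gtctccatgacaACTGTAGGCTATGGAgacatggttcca
Kcnd2, across an exon junction: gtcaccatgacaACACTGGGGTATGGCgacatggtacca
Kcnf1, chr12:17175061-17175075, minus strand: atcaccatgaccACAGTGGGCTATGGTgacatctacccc
Kcnh1, chr1:192337754-192337768, plus strand: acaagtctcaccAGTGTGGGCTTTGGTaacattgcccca
Kcnma1, chr14:23528413-23528427, minus strand: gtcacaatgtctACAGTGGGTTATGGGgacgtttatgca
Kcnt1, chr2:25894367-25894381, plus strand: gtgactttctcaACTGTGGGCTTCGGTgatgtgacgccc
Kcnj11, chr7:46099496-46099510, minus strand: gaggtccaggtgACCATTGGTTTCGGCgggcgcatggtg
Kcnk1, first filter, across an exon junction: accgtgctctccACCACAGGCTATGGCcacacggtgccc
Kcnk1, second filter, chr8:126025329-126025343, plus strand: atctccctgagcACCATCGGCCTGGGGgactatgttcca

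These codons were found in 77 of the 93 genes, against 346 of 21782 coding genes searched (1.588%). All 77 genes of the pore-forming families held them, the 15 auxiliary genes and Kcnrg did not, and all 14 Kcnk genes held them 2 times. A match is a description of the sequence and does not show a working channel: the silent Kv subunits, such as Kcnf1, hold it and form no channel on their own. Of the genes with a single filter, 50 carry a tyrosine codon in the centre and 13 a phenylalanine codon, as Kcnh1, Kcnt1 and Kcnj11 do. In TPM, a unit that scales each count by the exon length of its gene so that genes can be compared within a library, the tyrosine genes summed to 2414 and the phenylalanine genes to 419.6. The gene structure also differs between families. Of the 8 Kcna genes, 7 have the whole coding sequence in 1 exon, whereas Kcnma1 has 30 coding exons and the Kcnt and Kcnu genes have 27 to 32.

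The libraries held 78341827 to 89979690 reads, of which 31201119 to 36145961 were counted in genes on the transcribed strand. In CPM, counts scaled by library size with TMM factors and not by gene length, Trmt1l on chromosome 1 (151428542 to 151458161, GRCm38) measured 35.1, 33.0 and 35.2 CPM in WT and 2.676, 3.0 and 2.933 CPM in KO. Its log2 ratio was -3.58 (SE 0.0813, edgeR adjusted p = 6.948e-10), so every library matched its label. Brain markers were present, with a summed neuron marker level of 4583 to 4780 CPM in WT and 4500 to 4717 CPM in KO. None of 14 lists of cell type and region markers held a called gene. Replicate 3 of each group stood apart in some olfactory mucosa markers but not in all of them. Cyp2g1 had 260 counts in WT replicate 3 and 107 in KO replicate 3 against 0 or 1 elsewhere. Bpifb4 had 123 and 22 against 0 to 8, and Cnga2 had 85 and 36 against 17 to 22. Omp had 190, 102 and 391 counts in WT and 190, 311 and 297 in KO. Adcy3 and Gnal did not set replicate 3 apart in both groups either. The pituitary gene Gh had 30 counts in WT replicate 3 and 0 elsewhere, and Prl had 0 in every library. Blood markers lay above 0 in 5 of 5, at 109 to 149 CPM in WT and 98.3 to 248 CPM in KO. The part of these tissues in the Kcn results was not tested, and without WT or KO replicate 3 there were 0 called Kcn genes and 5 or 4 at an unadjusted p under 0.05 (6.32% and 8.01% of all genes). Over all 21237 genes tested, 2 passed an adjusted p of 0.05 (0.00942%). In bulk tissue, fewer cells of a type and less RNA per cell cannot be told apart. Of all mapped reads, 50.3 to 52.2% in WT and 48.6 to 49.8% in KO fell in no gene on the transcribed strand. These ranges do not overlap, and their part in any result below was not tested.

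Kcn transcripts spanned more than 4 orders of magnitude on the TPM scale. Of the 93 genes, 56 averaged 10 TPM or more over the 6 libraries, 78 averaged 1 TPM or more and 7 lay under 0.1 TPM. The 10 most abundant genes held 39.3% of the summed TPM. The glial inward rectifier Kcnj10 led with the union of exons as gene length, and Kcnab2 led, with Kcnj10 second, with the longest transcript. The inward rectifiers and the auxiliary subunits were the largest groups, with 18.6% ± 0.232 and 16.5% ± 0.237 of the summed TPM (mean ± SD over 6 libraries). The Kcna to Kcnd genes, 17 in all, held 31.7% ± 0.333 together. With the length of the longest transcript in place of the union of exons, the order of the leading groups turned, to 16.9% for Kcnj and 19.4% for the auxiliary genes.

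**Figure D1:**
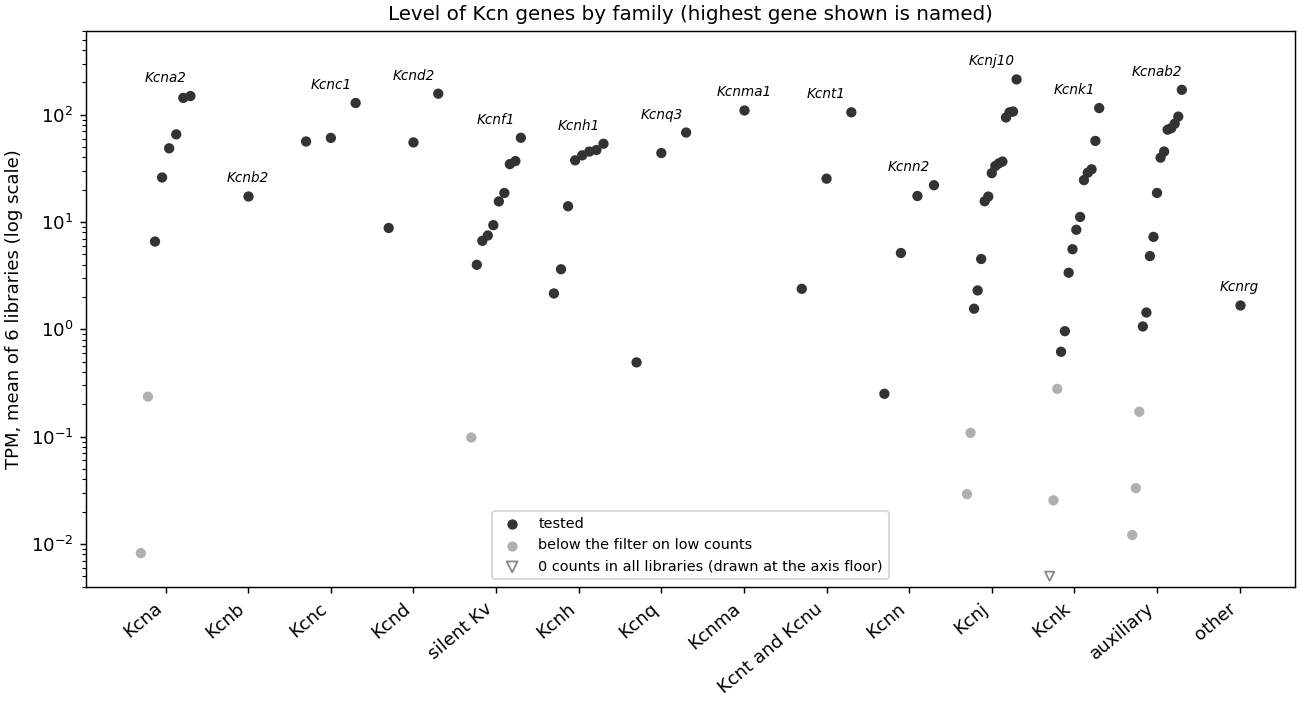
Mean TPM over 6 libraries (vertical axis, log scale) of 89 of the 93 Kcn genes, by family along the horizontal axis, with the highest gene shown in each family named. Dark points are genes tested between genotypes, grey points are genes below the filter on low counts, and the open triangle at the axis floor is Kcnk16 with 0 counts. Kcnj10 is the highest point at 213 TPM, and most families have 1 or a few genes well above the rest.

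Among the Kcna genes, Kcna2 and Kcna1, which encode the Kv1 subunits of juxtaparanodal axons and presynaptic terminals, led with 149 ± 8.93 and 144 ± 6.58 TPM (mean ± SD, n = 6 libraries). This difference is within the spread of the libraries, and with the length of the longest transcript Kcna1 came first. Kcna6, Kcna4, Kcna3 and Kcna5 followed at 65.7, 48.7, 26.03 and 6.58 TPM. Kcna10 had at most 7 counts in a library and Kcna7 had 1 count in KO replicate 1 and 0 elsewhere.

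Kcnc1, which encodes a fast Kv3 subunit of rapidly firing neurons, measured 129 ± 5.12 TPM. Kcnc2 and Kcnc4 lay at 60.9 and 56.3 TPM. Kcnd2, the main Kv4 subunit of dendritic A-type current, measured 157 ± 7.26 TPM, 71.05% of the Kcnd sum. Kcnd3 and Kcnd1 measured 55.2 and 8.80 TPM.

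The silent Kv subunits, which join Kv2 channels and modify them, held 5.21% of the summed TPM. Kcnf1 led with 61.0 ± 9.15 TPM, above Kcng4 at 37.0 and Kcnv1 at 34.7 TPM. In the Kcnh group no gene stood apart: Kcnh1, Kcnh5, Kcnh7, Kcnh3 and Kcnh2 ran from 53.6 down to 37.6 TPM, and with the longest transcript Kcnh3 came first. Kcnq3, a subunit of the M-current channel that restrains repetitive firing, measured 68.2 ± 4.95 TPM. Kcnq5, a related M-channel subunit, measured 44.0 ± 4.09 TPM and Kcnq1, a subunit best known from heart and inner ear, 0.492 TPM.

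Kcnma1, the pore of the BK channel opened by voltage and calcium together, measured 112 ± 8.11 TPM. The sodium-activated Kcnt1 measured 105 ± 6.97 TPM and its relative Kcnt2 25.4 ± 3.36 TPM, with the largely testicular Kcnu1 at 2.39 TPM. The small-conductance calcium-activated genes were the least abundant pore family, with 1.20% of the summed TPM. Kcnn2, a mediator of afterhyperpolarization, led that family with 22.1 ± 2.69 TPM, Kcnn3 had 17.5 TPM, and Kcnn4, known from blood and epithelial cells, had 0.251 TPM.

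Kcnj10, the Kir4.1 channel through which astrocytes and oligodendrocytes take up potassium, measured 213 ± 12.6 TPM, the highest of the 93 genes with union exon length. Kcnj3 and Kcnj9, subunits of G-protein-gated channels, followed at 107 ± 6.66 and 105 ± 3.21 TPM, a difference within the spread, and Kcnj4 at 94.3 TPM. Kcnj11, the pore of neuronal ATP-sensitive channels, measured 36.6 ± 1.88 TPM, above its vascular counterpart Kcnj8 at 4.53 ± 0.276 TPM. Kcnj13, an inward rectifier of the choroid plexus, measured 15.6 ± 2.72 TPM. Kcnj15 and Kcnj1 were not tested, with no more than 16 and 2 counts in a library.

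Kcnk1 (TWIK-1) was the leading leak subunit at 115 ± 7.77 TPM, 40.2% of the family. Kcnk9 (TASK-3) measured 57.0 TPM and Kcnk2 (TREK-1, opened by stretch and lipids) 31.01 ± 0.914 TPM. Of the 14 Kcnk genes, 3 were not tested: Kcnk7, Kcnk18 and Kcnk16, the last with 0 counts in every library.

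Of the auxiliary subunits, Kcnab2, the main Kv1 β-subunit, was the most abundant at 171 ± 8.84 TPM. Kcnip3, Kcnip4 and Kcnip2, calcium sensors of Kv4 channels, measured 96.2 ± 5.87, 82.5 ± 6.92 and 75.0 ± 6.20 TPM. Kcnip4 spans 24 other annotated genes on its own strand, so its count is less certain than that of a gene standing alone. Kcnmb4, the neuronal BK β-subunit, measured 39.8 ± 1.53 TPM against 1.06 TPM for the smooth-muscle β-subunit Kcnmb1. Kcne1, Kcne3 and Kcnmb3 had at most 4 counts in a library. Kcnrg, a soluble Kv regulator outside these families, measured 1.68 ± 0.433 TPM.

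No Kcn gene changed between KO and WT at an adjusted p of 0.05. Of the 93 genes, 82 passed the filter on low counts and were tested, and the 11 others had no more than 16 counts in any library. The smallest adjusted p of a Kcn gene in edgeR's quasi-likelihood test was 0.5842 (Kcnh7). At an unadjusted p under 0.05 there were 5 of 82 (6.10%), against 7.92% of all genes tested. DESeq2's Wald test called 0 Kcn genes and 26 of all 21237, with 3 Kcn genes at an unadjusted p under 0.05 (5.46% of all genes). Limma-voom called 0 Kcn genes and 2 of all genes, with 4 Kcn genes at an unadjusted p under 0.05 (7.68% of all genes). Summed over all 93 genes, the WT libraries gave 6648 ± 82.2 CPM and the KO libraries 6648 ± 128 CPM (mean ± SD, n = 3 each), equal within the spread. In TPM the sums were 3770, 3936 and 3706 in WT and 3658, 3777 and 3583 in KO. Their means were 3804 and 3672 TPM, and the groups overlapped.

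The intervals of the main fit show how large a change these libraries leave room for. They are given gene by gene, without adjustment for the number of genes. They hold the spread between libraries and not the choice of processing. The 95% interval of the fold change lay within 0.5 on the log2 scale for 71 of the 82 genes and within 0.25 for 41. From estimate to bound, the interval reached 0.0799 at the narrowest, 0.164 at the median and 1.17 at the widest. Log2 fold changes ran from -0.52 (Kcnrg) to 0.26 (Kcnf1) and were above 0 for 50 genes and below 0 for 32 (61.0% above 0, against 50.05% of all genes tested). Their median was 0.03, and 0.00 over all genes. With a correction for gene GC content the median of the Kcn genes was -0.01, so its sign depends on that choice. The tested Kcn genes had a median GC content of 52.0%, against 48.5% for all genes tested.

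**Figure D2:**
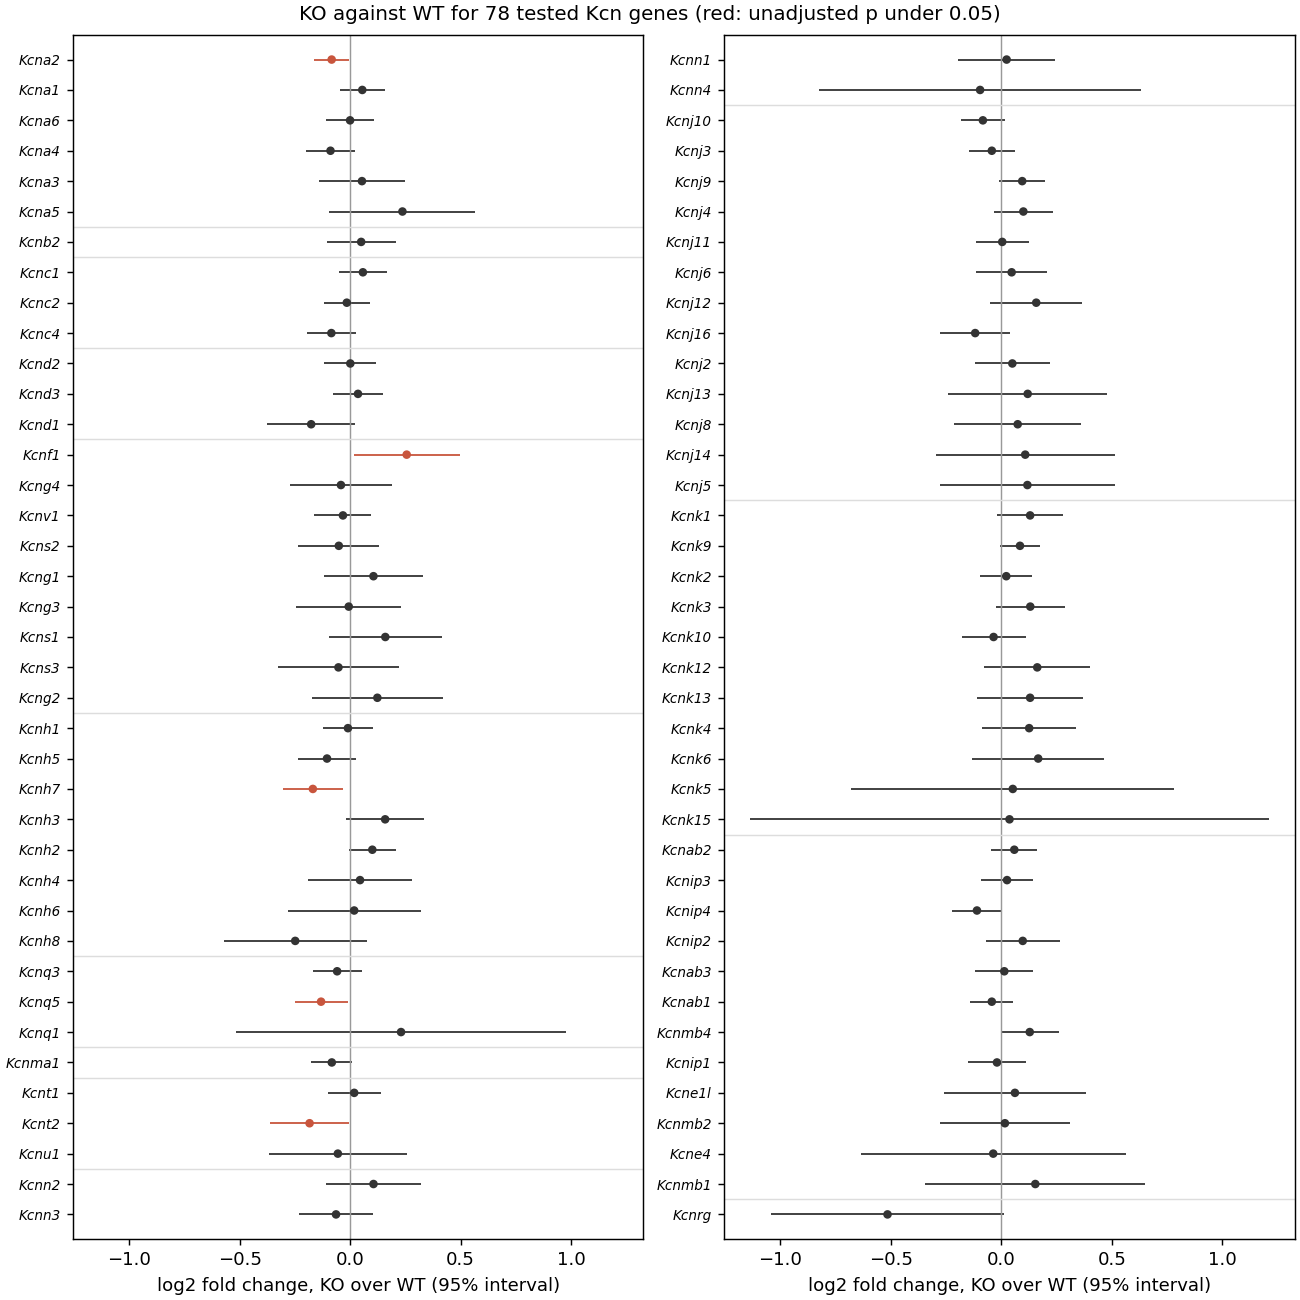
Log2 fold change of KO over WT (horizontal axis) with its 95% interval for 78 of the 82 tested Kcn genes, ordered by family and by TPM within it. The 5 genes in red had an unadjusted p under 0.05 and none passed after adjustment. Most intervals lie between -0.5 and 0.5, and the widest belong to genes of low level such as Kcnk15.

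Among genes with an unadjusted p under 0.05, 1 had the higher level in KO (4.54% of all genes tested) and 4 the lower (3.38% of all genes tested). The values below describe these 5 genes without a call. Kcna2 measured 485, 478 and 482 CPM in WT and 461, 452 and 452 CPM in KO. All 3 KO libraries lay below all WT libraries, and the log2 ratio of KO to WT was -0.08 (SE 0.0365, edgeR adjusted p = 0.622).

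Kcnh7 (Erg3, a slowly deactivating subunit of neuronal Erg current) measured 182, 198 and 198 CPM in WT and 186, 172 and 156 CPM in KO. WT replicate 1 lay below KO replicate 1, so the groups overlapped, and the log2 ratio was -0.17 (SE 0.0624, edgeR adjusted p = 0.584). Kcnq5 measured 87.5, 97.2 and 94.5 CPM in WT and 89.0, 84.2 and 81.7 CPM in KO. Here again WT replicate 1 and KO replicate 1 crossed, and the log2 ratio of KO to WT was -0.13 (SE 0.0549, edgeR adjusted p = 0.619).

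Kcnt2 measured 43.3, 53.1 and 50.5 CPM in WT and 46.1, 39.3 and 43.9 CPM in KO, with WT replicate 1 below 2 of the 3 KO libraries. The log2 ratio was -0.18 (SE 0.0814, edgeR adjusted p = 0.622). Of the 9 Kcn genes on chromosome 1, Kcnt2 is the nearest to the targeted gene, 10.8 Mb away.

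Kcnf1 was the gene of the 5 with the higher level in KO. It measured 63.8, 66.2 and 81.0 CPM in WT and 78.8, 99.3 and 73.9 CPM in KO, and WT replicate 3 lay above 2 KO libraries. The log2 ratio was 0.26 (SE 0.109, edgeR adjusted p = 0.622). Without KO replicate 2, its highest library, the log2 ratio of Kcnf1 was 0.12 (edgeR adjusted p = 0.795). Without the filter on low counts the adjusted p of Kcnf1 was 0.001814, in a fit that called 298 of 37245 genes (0.8001%) in place of 2 of 21237. Kcnf1 also had the widest spread within groups of the 55 Kcn genes at 10 CPM or more, with a coefficient of variation of 15.01% against a median of 4.96%.

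These 5 genes did not stay the same when the GC content of genes was corrected for. Then 4 other Kcn genes, Kcnc4, Kcnmb4, Kcnk9 and Kcnd1, had an unadjusted p under 0.05 (4 of 82, against 4.31% of all genes) and none of the 5 above did. The log2 ratios under GC correction were 0.21 for Kcnf1, -0.11 for Kcnq5, -0.09 for Kcnh7, -0.08 for Kcnt2 and -0.05 for Kcna2, each with its sign kept. Without KO replicate 1 there were 11 Kcn genes at an unadjusted p under 0.05 (8.58% of all genes), without KO replicate 2 there were 3 (7.23%) and without WT replicate 2 also 3 (5.50%). Without KO replicate 3 the log2 ratio of Kcnh7 was -0.11, and without WT replicate 2 or KO replicate 2 that of Kcnt2 was -0.12.

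**Figure D3:**
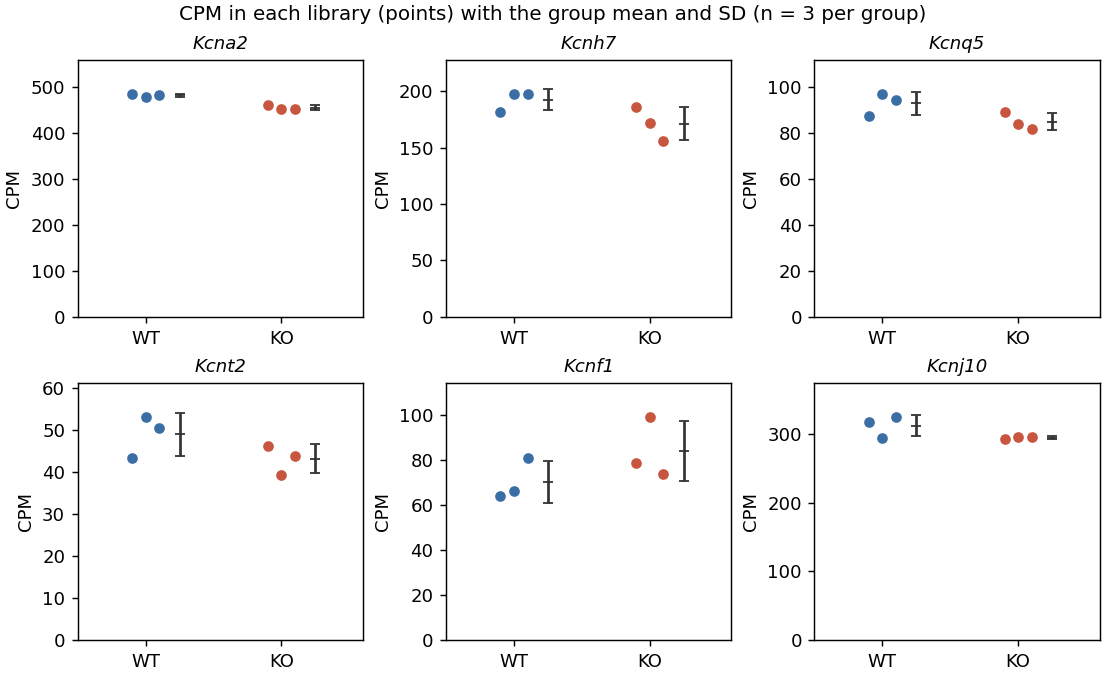
CPM (vertical axis, from 0) of the 5 Kcn genes with an unadjusted p under 0.05 and of Kcnj10, the Kcn gene with the highest TPM by union exon length, in each WT library (blue) and KO library (red), with the mean and SD of each group (n = 3) beside the points. The groups do not overlap for Kcna2 and overlap for the other 5 genes.

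Counted by overlap alone, 11 of the 82 genes (13.4%) had all KO libraries on the same side of all WT libraries, against 14.4% of all genes tested. In KO, 4 of the 82 lay above WT (7.46% of all genes tested) and 7 of the 82 below (6.97% of all genes tested). The share of both directions together was near the background. The 4 above were Kcnk9, Kcnmb4, Kcnh2 and Kcnk4, and the 7 below were Kcna2, Kcnc4, Kcna4, Kcnh5, Kcnab1, Kcnd1 and Kcnrg. Kcnmb4 measured 31.8, 32.8 and 35.58 CPM in WT and 36.2, 35.62 and 37.6 CPM in KO, and the log2 ratio of KO to WT was 0.13 (SE 0.0603, edgeR adjusted p = 0.628). Its sign turned to -0.12 with unstranded counts, and the cause of that turn was not tested. Kcnmb4 is overlapped by 2 antisense genes, Kcnmb4os1 and Kcnmb4os2. Of the stranded reads at Kcnmb4, 0.55% were on the opposite strand. Kcnrg measured 0.934, 1.02 and 0.881 CPM in WT and 0.489, 0.743 and 0.747 CPM in KO, a log2 ratio of KO to WT of -0.52 (95% interval -1.04 to 0.0111, edgeR adjusted p = 0.628). Kcnrg lies opposite the non-coding gene Dleu2, and 85.3% of the stranded reads at its exons were on the opposite strand. With unstranded counts the log2 fold change of Kcnrg was -0.08.

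Apart from these, the genes named for their abundance or known role had log2 ratios between -0.11 and 0.13, and each overlapped between the groups. Kcnj10 measured 317, 295 and 326 CPM in WT and 293, 296 and 296 CPM in KO. WT replicate 2 lay among the KO libraries, and the log2 ratio of KO to WT was -0.08 (SE 0.0448, edgeR adjusted p = 0.670). Oligodendrocyte markers, from cells that also express Kcnj10, summed to 4074 to 4498 CPM in WT and 3495 to 4197 CPM in KO, with 6 of 6 below 0 in log2 fold change and 0 called. Astrocyte markers summed to 1674 to 1747 CPM in WT and 1704 to 1817 CPM in KO, with 3 of 6 at an unadjusted p under 0.05 in both directions (Aqp4 -0.17, Aldh1l1 0.18 and Gfap 0.45) and 0 called. Gfap stood at 248 CPM in KO replicate 3 against 115 to 140 CPM elsewhere. The part of either cell type in the Kcnj10 level was not tested.

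For the Kv1 subunit Kcna1 the libraries gave 180, 180 and 173 CPM in WT and 186, 192 and 175 CPM in KO (log2 fold change 0.06, SE 0.0464). Kcnc1 gave 323, 311 and 310 CPM in WT and 307, 328 and 347 CPM in KO (0.06, SE 0.0491). In both genes the groups overlapped, and GC correction turned the sign of Kcnc1. With each library left out, Kcna1 ranged from 0.02 (without KO replicate 2) to 0.09 and Kcnc1 from 0.01 (without KO replicate 3) to 0.10 (without KO replicate 1).

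The Kv4 subunit Kcnd2 gave 216, 204 and 221 CPM in WT and 198, 224 and 218 CPM in KO. Its log2 fold change was 0.00 with a 95% interval of -0.116 to 0.118.

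The M-channel gene Kcnq3 gave 263, 277 and 269 CPM in WT and 273, 263 and 241 CPM in KO (log2 fold change -0.06, SE 0.0508). KO replicate 3 was the lowest library, and the groups overlapped.

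Kcnma1, the gene with the most CPM, gave 512, 528 and 498 CPM in WT and 501, 484 and 468 CPM in KO. Only KO replicate 1 reached into the WT range, and the log2 ratio was -0.08 (SE 0.0421, edgeR adjusted p = 0.651). Kcnt1 gave 270, 274 and 241 CPM in WT and 252, 272 and 272 CPM in KO (0.02, SE 0.0549). Kcnn2 gave 40.04, 44.3 and 40.99 CPM in WT and 42.3, 53.4 and 39.2 CPM in KO (0.11, SE 0.0978), where KO replicate 2 stood above the other 5 libraries, and without it the log2 fold change was -0.04. Kcnh1 gave 104, 110 and 97.9 CPM in WT and 103, 104 and 103 CPM in KO (-0.01, SE 0.0508), with the KO libraries inside the WT range.

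The inward rectifier genes tested lay above 0 in 10 of 13 cases, with a median log2 fold change of 0.07, and 0 were called. Left out, KO replicate 1 or KO replicate 2 brought that median to 0.01 or 0.00 and WT replicate 3 to 0.03. With GC correction it was 0.04. Kcnj3 gave 149, 152 and 147 CPM in WT and 150, 148 and 137 CPM in KO (-0.04, SE 0.0474). Kcnj11 gave 35.1, 37.0 and 34.1 CPM in WT and 36.0, 35.4 and 35.05 CPM in KO (0.00, SE 0.0551). Kcnj8 gave 2.94, 2.97 and 2.98 CPM in WT and 3.42, 2.91 and 3.02 CPM in KO (0.07, SE 0.132), and its log2 ratio was 0.00 without KO replicate 1. The KO libraries overlapped the WT libraries in all 13 genes.

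Kcnj13 gave 5.14, 5.58 and 4.29 CPM in WT and 5.90, 6.30 and 4.12 CPM in KO, and the log2 ratio of KO to WT was 0.12 (SE 0.164, edgeR adjusted p = 0.881). With each library left out in turn it ranged from 0.00 (without KO replicate 2) to 0.29 (without KO replicate 3). KO replicate 3 was the lowest of the 6 libraries and the other KO libraries were the highest. The 6 choroid plexus markers summed to 312 to 367 CPM in WT and 372 to 444 CPM in KO, with 6 of 6 above 0 in log2 fold change, 2 at an unadjusted p under 0.05 and 0 called. KO replicate 3 was also the lowest KO library for that sum, though its 372 CPM lay above every WT library. WT replicate 2 had the lowest sum, 312 CPM, and the highest Kcnj13 level of the WT libraries. The part of the choroid plexus share in the Kcnj13 level was not tested. Of the stranded reads at Kcnj13, 48.5% were on the opposite strand, where Gigyf2 lies.

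Of the 11 Kcnk genes tested, 10 lay above 0, with a median log2 fold change of 0.13, and 0 were called. With GC correction 8 of 11 lay above 0 and the median was 0.04. Over the 6 fits that left out a library the median was 0.08 to 0.14, and the median GC content of the Kcnk genes was 54.6%. Kcnk1 gave 68.3, 61.2 and 65.3 CPM in WT and 65.0, 77.3 and 71.1 CPM in KO (log2 fold change 0.13, SE 0.0675, edgeR adjusted p = 0.655), and 0.07 without KO replicate 2. Kcnk2 gave 41.1, 38.7 and 40.5 CPM in WT and 42.0, 39.8 and 40.4 CPM in KO (0.02, SE 0.0536). As a share of the summed TPM, the Kcnk genes held 7.47% ± 0.302 in WT and 7.91% ± 0.219 in KO, and KO replicate 1 lay below WT replicate 1. In summed CPM, which longer transcripts weigh on more, the Kcnk genes gave 404, 392 and 386 in WT and 406, 422 and 418 in KO. These groups did not overlap, whereas the TPM shares did, and no test was made on the sums. Kcnk9 weighs most in the Kcnk sum, at 179, 185 and 174 CPM in WT and 193, 190 and 188 CPM in KO, also without overlap. The sum alone therefore does not show a change shared by the family. The Kcna sum lay the other way, at 847, 844 and 839 CPM in WT and 831, 822 and 809 CPM in KO. Kcna2 makes up the most of that sum, 3 of the 6 Kcna genes tested lay above 0 with a median log2 fold change of 0.03, and the TPM shares of the family overlapped. With GC correction 2 of 6 lay above 0 and that median was -0.04.

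**Figure D4:**
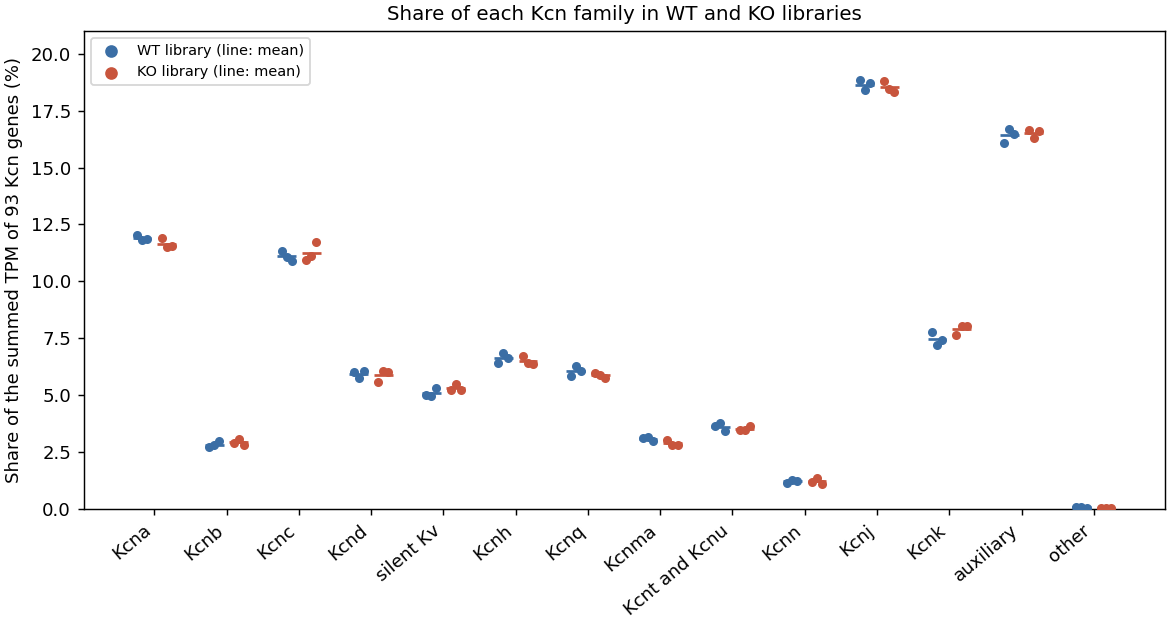
Share of each Kcn family in the summed TPM of the 93 genes (vertical axis, percent) in the WT libraries (blue) and KO libraries (red), with the mean of each group as a line. Kcnj and auxiliary genes hold the largest shares at 18.6% and 16.5%, and no family moved by as much as 1 percentage point between the group means.

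Among the auxiliary subunits 8 of 12 tested genes lay above 0 and the median log2 fold change was 0.02. With GC correction 6 of 12 lay above 0 and the median was -0.01, so the direction turned. Kcnab2 gave 234, 260 and 244 CPM in WT and 262, 257 and 249 CPM in KO (0.06, SE 0.0475), with its sign turned by GC correction. Kcnip4 gave 82.5, 85.2 and 77.6 CPM in WT and 75.7, 73.8 and 77.7 CPM in KO (-0.11, SE 0.0512, edgeR adjusted p = 0.628), and -0.04 with GC correction. KO replicate 3 passed WT replicate 3 by a small margin, so the groups just overlapped.

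Several Kcn genes lie beside each other in the genome (GRCm38). Kcna3, Kcna2 and Kcna10 stand on chromosome 3 from 107036169 to 107195721, and Kcna5, Kcna1 and Kcna6 on chromosome 6 from 126532551 to 126740674. Neighbours differed widely in level: in the first cluster Kcna2 had 149 TPM, Kcna3 26.03 TPM and Kcna10 0.236 TPM, and in the second Kcna1 had 144 TPM and Kcna5 6.58 TPM. Kcnj9 and Kcnj10 lie 11.9 kb apart on chromosome 1, on opposite strands, and both are abundant. Kcnmb1 lies within Kcnip1 on chromosome 11 on the opposite strand, and 63.2% of the stranded reads at its exons were on that strand. In all, 9 Kcn genes had more reads on the opposite strand than on their own, 3 of them tested (Kcnq1, Kcnrg and Kcnmb1), so the level of these genes depends on strand-specific counting.

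Genes whose products work with potassium channels or move potassium by other routes gave 0 called of 29 tested from a list of 32. At an unadjusted p under 0.05 there were 4 (13.8%, against 7.92% of all genes tested), and the median log2 fold change was -0.02, with 10 above 0 and 19 below. The neuronal potassium-chloride cotransporter Slc12a5 gave 521, 520 and 506 CPM in WT and 547, 564 and 559 CPM in KO (0.11, SE 0.0371, edgeR adjusted p = 0.579). Adam23, a partner of the axonal Kv1 complex, gave 331, 325 and 315 CPM in WT and 302, 280 and 286 CPM in KO (-0.16, SE 0.0436, edgeR adjusted p = 0.576). In both genes the groups did not overlap.

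The 2 others were the sodium pump β-subunit Atp1b3, with a log2 fold change of -0.12, and Tmem38b, a cation channel of the endoplasmic reticulum, with -0.27. All 5 genes of the axonal Kv1 complex list (Cntnap2, Lgi1, Adam22, Adam23 and Cntn2) lay below 0, with a median of -0.06 and 0 called. Their summed level was 1340 to 1402 CPM in WT and 1292 to 1343 CPM in KO, ranges that overlap at their edges, beside group means of 482 ± 3.57 and 455 ± 5.49 CPM for Kcna2 (SD, n = 3 each). Kcna1 and the Kv1 β-subunit Kcnab2, described above, both had log2 ratios of 0.06. With WT replicate 1 left out, 2 of the 29 partner genes had an unadjusted p under 0.05 in place of 4 (6.30% of all genes in that fit). With KO replicate 2 left out, 6 partner genes did (7.23% of all genes in that fit).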

How the data were processed

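Reads per gene were measured in 3 WT and 3 KO whole-brain libraries. The authors deposited raw counts per gene, made with cutadapt 1.9.1 and STAR 2.7.0f per the submitters' processing notes. Per the file layout, each file gives unstranded counts and counts for either strand. The last column held 94.6 to 94.8% of the stranded counts and was used. The gene identifiers all match GENCODE M21 (GRCm38), and the build itself is not given in the sources used here. Total counts in genes of 31201119 to 36145961 per library set the precision.

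KO was compared with WT over all 6 libraries by edgeR 4.0.16 (R 4.3.3) with TMM scaling, filterByExpr and the quasi-likelihood test, without covariates. p-values were adjusted by Benjamini-Hochberg over 21237 genes, with a threshold of 0.05. SE is the log2 fold change over the root of F, and intervals are 95%. TPM came from the counts and union exon lengths over all 55450 genes, and served to compare genes and to give each family's share of the summed Kcn TPM. Levels in KO and WT were compared in CPM, because the small RNA gene Rn7sk took much of the TPM. Its share was 14.9 to 16.7% in WT and 17.6 to 18.7% in KO.

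Alternatives were unstranded counts, DESeq2 1.42.0 size factors and Wald test, total counts, no filter, a mean count of at least 50, limma 3.58.1 voom, the replicate number as a block, GC correction, both together, each library left out and another gene length. Genes named with values per library were those called, the most abundant of each family, those with an unadjusted p under 0.05, and a list of known roles. Other genes named were chosen after their values were seen. Some genes and sequences that these rules choose are not reported here, and counts over families include them. The members and lists were chosen with earlier results of these data known. That triplicates are separate mice is not stated beyond the word biological, so p-values measure the spread between these libraries.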

Additional observations from a re-analysis of the deposited data

How the results depend on the processing

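No Kcn gene passed an adjusted p of 0.05 in 15 of the 16 alternatives. Without a filter on low counts 1 did, Kcnf1. A mean count of at least 50 left 75 of the 82 genes with a value, and Kcnrg was among those without. The number at an unadjusted p under 0.05, 5 as reported, was 8 without a filter (6.73% of all genes), 3 with the DESeq2 Wald test (5.46%), 3 with the replicate number as a block (6.85%) and 3 with the replicate block and GC correction (3.69%). It ranged from 3 to 11 with each library left out. Whether the replicate numbers pair the libraries was not settled. The deviations of same-numbered libraries from their group means correlated at 0.0402, -0.0314 and -0.0581 over 21237 genes. A correlation over all genes cannot exclude a shared factor that touches few genes.

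The median log2 fold change of the Kcn genes was -0.009748 with GC correction, -0.01082 with the replicate block and GC correction, and 0.01077 to 0.04029 with each library left out. GC correction gave 0.01044 for all genes. Single genes of small log2 ratio moved too. Over their alternatives the ratio ran from -0.02 to 0.10 for Kcnab2, -0.04 to 0.05 for Kcnd2, -0.05 to 0.03 for Kcnh1, -0.12 to -0.05 for Kcnj10, -0.07 to 0.04 for Kcnj11, -0.11 to 0.01 for Kcnj3, -0.11 to -0.04 for Kcnma1, -0.10 to -0.01 for Kcnq3 and -0.04 to 0.05 for Kcnt1. The partner genes at an unadjusted p under 0.05 numbered 2 to 6 with each library left out. The 2 were found without WT replicate 1 (6.30% of all genes) and the 6 without KO replicate 2 (7.23% of all genes).

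With the longest transcript as gene length, the shares were 10.51% for Kcna, 16.85% for Kcnj and 19.4% for the auxiliary genes. With unstranded counts, Kcnj held 18.19% and the auxiliary genes 15.73%. The causes of these differences were not tested. The 11 genes not tested had at most 16 counts in a library. The widest interval, that of Kcnk15 with 2 to 18 counts per library, reached 1.17 to either side on the log2 scale.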

Other observations

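Reads on the strand opposite to the Kcn genes gave a separate measurement, since some come from antisense genes. On that strand 43 Kcn genes were testable between KO and WT by edgeR, of which 0 were called and 2, Kcnh7 and Kcnn2, had an unadjusted p under 0.05. Over all 10787 genes testable on that strand, 3 were called and 620 (5.75%) had an unadjusted p under 0.05.

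Kcng4, a silent Kv subunit, had the second widest spread within groups of the Kcn genes at 10 CPM or more, with a coefficient of variation of 13.1%. It measured 42.2, 38.7 and 31.9 CPM in WT and 31.8, 37.3 and 40.6 CPM in KO. The summed cerebellum markers measured 1216, 1064 and 875 CPM in WT and 914, 993 and 1155 CPM in KO, in the same libraries. Both pairs of values were chosen after they were seen, and the part of the dissected tissue in the level of Kcng4 was not tested.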
